A study of Homo sapiens with 6 samples.

Results

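The 7 genes described here, HMGA1, HMGA2, HMGB1, HMGB2, HMGB3, HMGN1 and HMGN2, encode high mobility group (HMG) proteins, small and abundant proteins that bind chromatin without being histones. They were chosen by name, each matched 1 row of the 60564 genes in the deposited count table, and all 7 passed the filter on low counts that left 18786 genes for testing. RNA was sequenced from CAL27, an established human line of tongue squamous cell carcinoma, in 2 groups of 3 libraries. The CNTNAP2-203 OE (overexpression) cells had been infected with a lentivirus carrying CNTNAP2-203, a transcript of CNTNAP2, and the control cells with the control vector, for which the sample descriptions name EGFP. Both groups were kept under 5 μg/ml puromycin for 2 weeks, so both were selected for a lentiviral insert. A single line was compared, and since no label ties a library to its own culture or infection, the p-values cover the spread among these 6 libraries, which may be technical.

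HMG proteins fall into 3 families. HMGA proteins bind the minor groove of AT-rich DNA through AT-hooks and bend or open it for transcription factors, HMGB proteins bend DNA with a pair of HMG boxes and carry an acidic tail, and HMGN proteins bind the nucleosome core itself and compete with linker histone H1. HMGA2 is an oncofetal gene, low in most adult tissue and raised in many carcinomas, HMGB2 is known for high expression in dividing cells, and HMGB1 is also released from dying or stressed cells as an inflammatory signal.

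Library totals ran from 36843190 to 42412703 counts. CNTNAP2 had 0, 3 and 4 counts in the controls and 119280 to 156055 in the overexpressing libraries, as the labels have it. CNTNAP2-203 OE replicate 3 had the lowest total, the fewest genes with a count (25336, against 26418 to 27002 in the others) and the lowest TMM scaling factor (0.951). For control replicate 1 the labels note a missing file of reverse reads. That library was kept in the main comparison of every gene, and the part of the missing file was not tested. All 8 squamous epithelial markers were detected, with a summed level of 13722 to 15577 CPM (counts scaled to the library total after TMM scaling) in control and 13838 to 17022 in CNTNAP2-203 OE. None of them passed in edgeR, 3 had an unadjusted p under 0.05, and 1 was called by DESeq2, 0 by limma and 1 by edgeR when CNTNAP2-203 OE replicate 3 was left out. The smallest p were those of the keratins KRT17, at 1559 ± 259 CPM in CNTNAP2-203 OE against 2316 ± 95.5 CPM in control (edgeR adjusted p = 0.0848), and KRT5, at 6500.4 ± 557 against 5126 ± 496 CPM (adjusted p = 0.189; SD, n = 3 each), in opposite directions. The 6 fibroblast, 5 leukocyte and 4 endothelial markers summed to at most 45.9, 32.9 and 11.5 CPM in any library. Most of these sums came from COL1A1 (23.9 to 33.6 CPM) and LUM (8.59 to 12.9 CPM), CD14 (21.6 to 31.6 CPM) and CDH5 (4.31 to 9.93 CPM), while COL3A1, PTPRC and PECAM1 were at or near 0 and KDR had no count. None of the 8 tested markers of these cells was called by edgeR, DESeq2 or limma or had an unadjusted p under 0.05. Among all tested genes, edgeR called 1.39% in either direction, and 17.2% had an unadjusted p under 0.05. DESeq2 called 1125 of 14763 genes, limma-voom 166 and limma-trend 186 of 18786, and edgeR without CNTNAP2-203 OE replicate 3 called 545 of 19470.

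In level per gene length, HMGA1 was the most abundant of the 7 and HMGA2 the least. FPKM (fragments scaled to gene length and library size, from the deposited log2 values) was 110.5 to 133 over the 6 libraries for HMGA1 and 61.6 to 96.6 for HMGN2, and these ranges did not overlap. HMGB2 followed at 34.1 to 48.6 FPKM, HMGN1 at 28.0 to 36.3, HMGB1 at 19.3 to 30.3 and HMGB3 at 13.1 to 22.5, with each of these ranges overlapping the next. HMGA2 lay apart at 1.73 to 5.86 FPKM. The gene lengths implied by the authors' FPKM values differ widely, from 2849 bases for HMGA1 to 9435 for HMGB1 and 18914 for HMGA2, so the levels of HMGB1 and HMGA2 in particular rest on the length used.

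**Figure D1:**
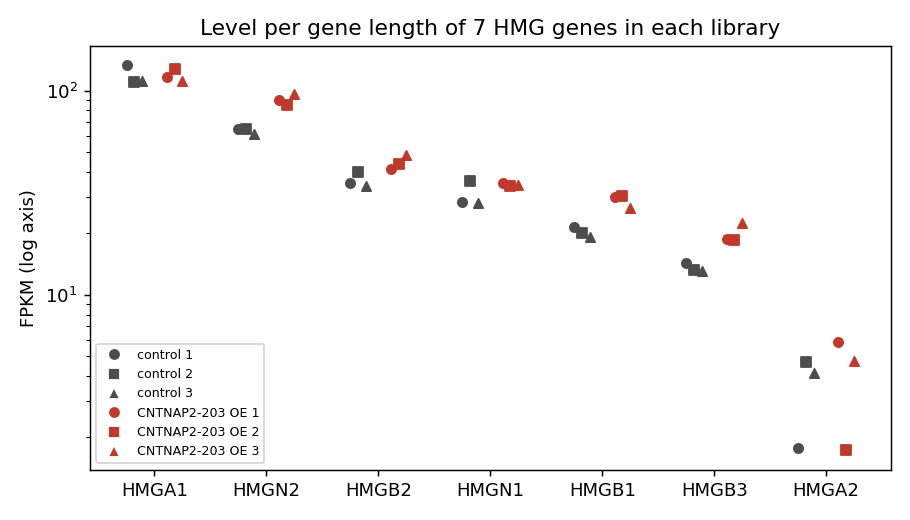
FPKM of each HMG gene (log axis) in the 3 control libraries (grey) and the 3 CNTNAP2-203 OE libraries (red), 1 point per library, ordered by mean level. HMGA1 was highest in every library and HMGA2 lowest, with 2 HMGA2 libraries at 1.77 and 1.73 FPKM and 4 between 4.11 and 5.86.

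HMGB1, HMGB3 and HMGN2 were about 1.5-fold higher in CNTNAP2-203 OE than in control, with every overexpressing library above every control, and of these only HMGB1 passed the test over all genes. HMGB2 was 1.26-fold higher, also without overlap, and HMGN1, HMGA1 and HMGA2 overlapped between the groups. With the edgeR quasi-likelihood test and Benjamini-Hochberg adjustment over 18786 genes, 1 of the 7 was called higher and none lower, where 0.798% of all tested genes were called higher, 0.596% lower and 1.39% in either direction. The groups did not overlap, with CNTNAP2-203 OE higher, in 4 of the 7 genes, against 13.7% of all tested genes, or 26.5% in either direction. The same 4 were the ones with an unadjusted p under 0.05, against 9.41% of all genes for that direction and 17.2% for either. All 7 log2 fold changes were positive, with a median of 0.33, beside a median of -0.0038 and 9315 positive values over the 18786 tested genes. The summed level of the 7 was 1140 to 1227 CPM in the controls and 1428 to 1581 CPM in CNTNAP2-203 OE.

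**Figure D2:**
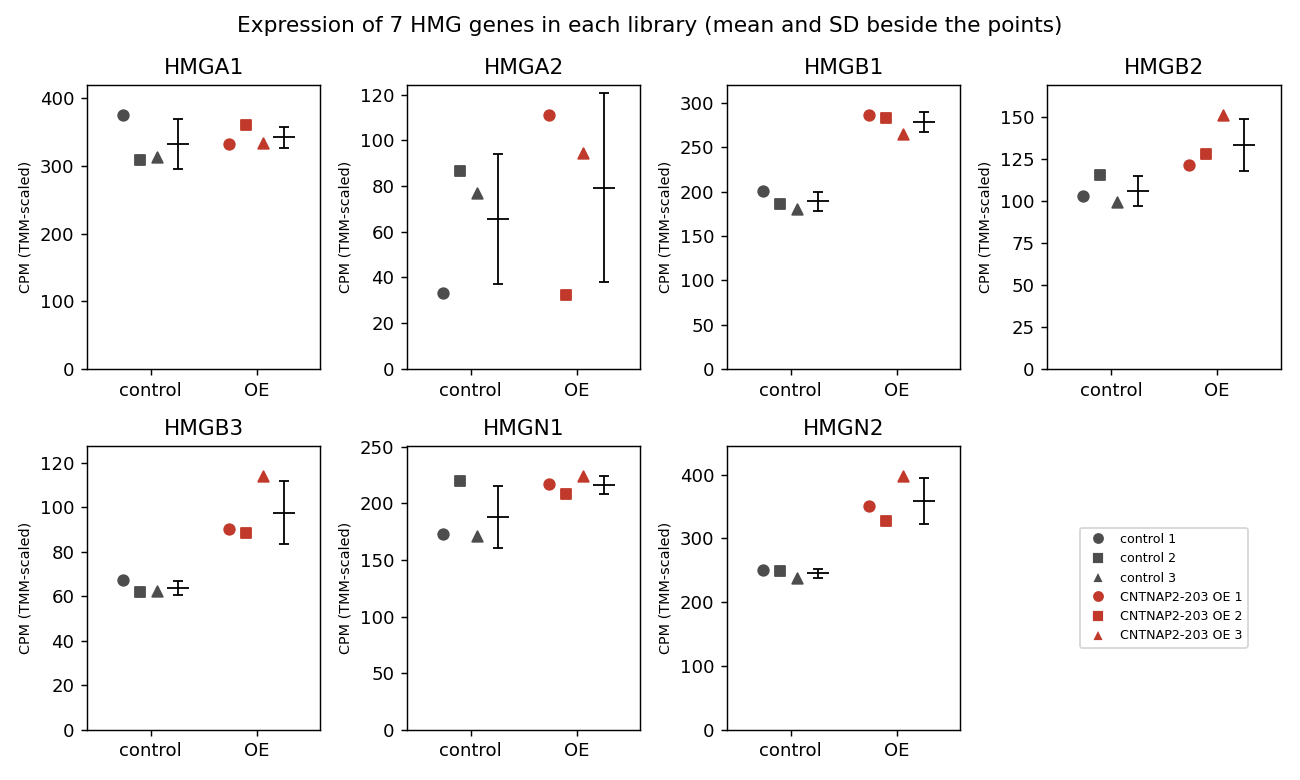
CPM after TMM scaling in each library for the 7 HMG genes, with control in grey, CNTNAP2-203 OE in red and the mean and SD of 3 libraries beside the points, every axis starting at 0. HMGB1, HMGB2, HMGB3 and HMGN2 show no overlap between groups, while HMGA2 has a low library in each group, at 33.2 and 32.4 CPM.

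HMGB1 (chr13:30456704-30617597, minus strand, in GENCODE 29 on GRCh38), which bends DNA in the nucleus and acts as an alarm signal outside the cell, was at 201, 187 and 180.0 CPM in control replicates 1, 2 and 3 and at 286, 283 and 265 CPM in CNTNAP2-203 OE replicates 1, 2 and 3. The lowest overexpressing library thus lay well above the highest control, and the spread within each group was small. Mean levels were 278 ± 11.3 and 189 ± 10.8 CPM (SD, n = 3 each). The log2 fold change was 0.56 (SE 0.0925, 95% interval 0.34 to 0.77, edgeR quasi-likelihood adjusted p = 0.0400). By p, HMGB1 ranked 151 among the 262 genes called. Leaving out CNTNAP2-203 OE replicate 3 kept the call (adjusted p = 0.0158), and leaving out any other library ended it. The adjusted p was then 0.118, 0.186 or 0.211 for control replicate 1, 2 or 3, and 0.134 or 0.0906 for CNTNAP2-203 OE replicate 1 or 2. It was also lost with the replicate number as a block (adjusted p = 0.130). The log2 fold change itself stayed between 0.52 and 0.60 when 1 library was left out.

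HMGB3 (chrX:150980509-150990775, plus strand), a paralog best known from blood progenitors and embryonic tissue, had the largest log2 fold change of the 7. It was at 67.5, 62.0 and 62.3 CPM in the controls and at 90.5, 88.5 and 114 CPM in CNTNAP2-203 OE replicates 1, 2 and 3. The third overexpressing library was clearly higher than its group, and the control libraries differed little. The difference of 97.7 ± 14.2 against 63.9 ± 3.12 CPM (SD, n = 3 each; log2 fold change 0.61, SE 0.122, 95% interval 0.33 to 0.89) missed the threshold, with an edgeR adjusted p = 0.0599. Leaving that library out gave a smaller log2 fold change, 0.48, and an edgeR adjusted p of 0.0304.

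HMGB2 (chr4:173331695-173335125, minus strand), a protein of dividing cells and a subunit of the SET complex, was at 103, 116 and 99.1 CPM in the controls and at 122, 128 and 151 CPM in CNTNAP2-203 OE. The gap between the groups was narrow, with control replicate 2 just below CNTNAP2-203 OE replicate 1. The means were 133 ± 15.5 against 106 ± 8.70 CPM (SD, n = 3 each), and the log2 fold change of 0.33 (95% interval 0.06 to 0.60) did not pass (edgeR adjusted p = 0.205). Its highest library was again CNTNAP2-203 OE replicate 3, and the log2 fold change was 0.23 with that library left out.

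HMGN2 (chr1:26472450-26475972, plus strand), a nucleosome-binding protein, was at 250.3, 248 and 238 CPM in the controls and at 351, 327 and 398 CPM in CNTNAP2-203 OE. It had the tightest controls of the 7 genes, with an SD of 2.75% of the mean, and its 3 overexpressing libraries all stood above 320 CPM. The log2 fold change was 0.55 (SE 0.103, 95% interval 0.31 to 0.79), and its edgeR adjusted p of 0.0506 lay just above the threshold. As with HMGB2 and HMGB3, CNTNAP2-203 OE replicate 3 was the highest library, and the other 5 gave a log2 fold change of 0.46 with an edgeR adjusted p of 0.0235. The part of that library's lower total and scaling factor in these 3 genes was not tested beyond leaving it out.

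HMGN1 (chr21:39342315-39349647, minus strand), the closest relative of HMGN2 in this set, was at 173, 220 and 171 CPM in the controls and at 217, 208 and 224 CPM in CNTNAP2-203 OE. Control replicate 2 was as high as the overexpressing libraries, so the groups overlapped, with a log2 fold change of 0.20 (95% interval -0.07 to 0.48, edgeR adjusted p = 0.424). Without control replicate 2 the log2 fold change was 0.33 (edgeR adjusted p = 0.333), and it ran from 0.14 to 0.33 over the 6 ways of leaving out 1 library. The point estimate for HMGN2, 0.55, is outside the 95% interval of HMGN1, but the interval of HMGN2, 0.31 to 0.79, overlaps it. The test of the pair itself, given further on, was not able to pass.

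HMGA1 (chr6:34236873-34246231, plus strand), the highest member in FPKM, was at 375, 309 and 313 CPM in the controls and at 333, 360.4 and 334 CPM in CNTNAP2-203 OE. Control replicate 1 was the highest of all 6 libraries and the other controls the lowest. The log2 fold change was 0.04 with a 95% interval of -0.21 to 0.29 (edgeR adjusted p = 0.865), so an increase as large as the point estimates for HMGB1, HMGB3 or HMGN2 lies outside its interval.

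**Figure D3:**
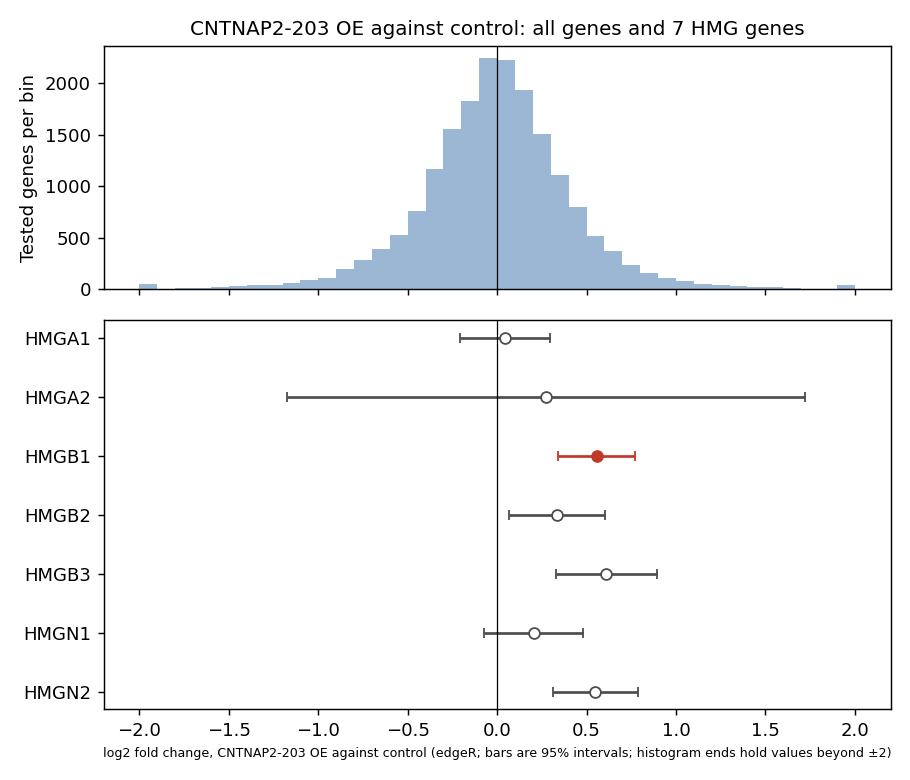
Above, the number of tested genes by log2 fold change between CNTNAP2-203 OE and control; below, the log2 fold change of each HMG gene with its 95% interval, filled red where the adjusted p is under 0.05. HMGB1, HMGB3 and HMGN2 lie between the 92nd and 94th percentile of all genes, HMGA1 near the middle, and HMGA2 has by far the widest interval.

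HMGA2 (chr12:65824131-65966295, plus strand) differed between libraries of the same group more than any other member. It was at 33.2, 86.6 and 77.02 CPM in control replicates 1, 2 and 3 and at 111, 32.4 and 94.5 CPM in CNTNAP2-203 OE replicates 1, 2 and 3. One library in each group was thus low, by 2.61-fold from lowest to highest within the controls and 3.43-fold within CNTNAP2-203 OE. The raw counts behind these values, 1318 and 1337 in the low libraries and 3254 to 4698 in the other 4, leave little counting error. The within-group SD of log2 CPM was 0.87, above that of 94.7% of all tested genes and of 99% of the 500 genes closest in level, where the other 6 members had 0.07 to 0.15 and the median gene 0.23. With a log2 fold change of 0.27 and a 95% interval of -1.18 to 1.72 (edgeR adjusted p = 0.845), no direction can be given, and the estimate was -0.046 without control replicate 1, -0.048 without CNTNAP2-203 OE replicate 1 and 0.65 without CNTNAP2-203 OE replicate 2.

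The genes whose profile over the 6 libraries was nearest to that of HMGA2, by the root mean square difference of centred log2 CPM, were MRPL30, a mitochondrial ribosomal protein gene (difference 0.146), and EXOG, a mitochondrial nuclease gene (0.308), out of 12474 genes compared, which left out genes with no symbol or with clone-style, LOC or LINC names. MRPL30 was at 44.5, 132 and 127 CPM in the controls and at 144, 39.9 and 142 CPM in CNTNAP2-203 OE, low in the same libraries as HMGA2. EXOG was at 2.80, 5.67 and 3.62 CPM in the controls and at 5.79, 2.08 and 4.40 CPM in CNTNAP2-203 OE. Counted after these values were seen, 4 of the 13455 genes whose average log2 CPM reached 1, here with those names included (0.0297%), were below 50% of every other library in both control replicate 1 and CNTNAP2-203 OE replicate 2, namely HMGA2, MRPL30, ZNF678 and AC025165.3. The labels note a missing file of reverse reads for control replicate 1 and nothing of the kind for CNTNAP2-203 OE replicate 2, and the part of that note in the HMGA2 values was not tested. HMGA2 overlaps 2 antisense genes and the pseudogene RPSAP52 on the opposite strand, from which the library kit cannot separate it, but none of these had more than 73 counts in a library.

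**Figure D4:**
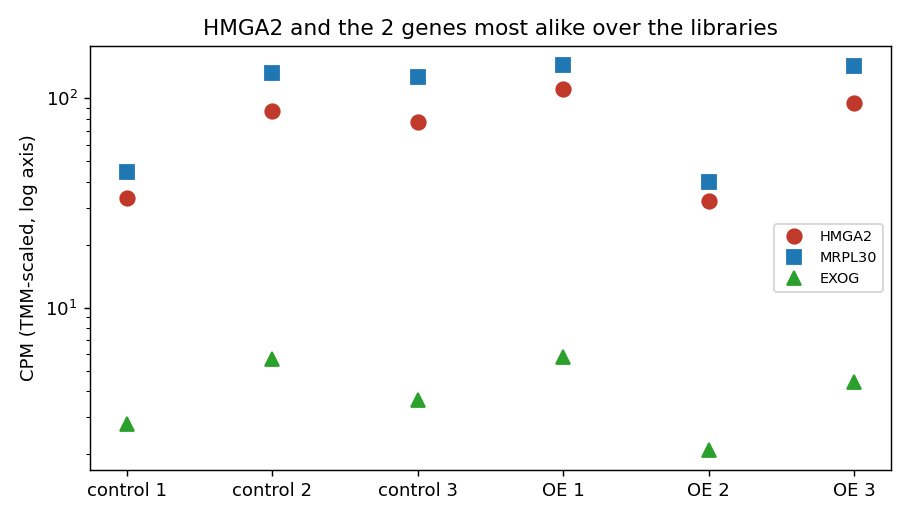
CPM (log axis) of HMGA2, MRPL30 and EXOG in the 6 libraries, 1 symbol per gene. In control replicate 1 and CNTNAP2-203 OE replicate 2 HMGA2 is at 33.2 and 32.4 CPM and MRPL30 at 44.5 and 39.9 CPM, the lowest libraries for each.

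HMGA2 is also set apart from the other members by its 3′ UTR, where the let-7 miRNAs bind. The mature miRNA is shown with its seed (bases 2 to 8) in capitals, followed by the 4 matches to that seed in the 3003-base 3′ UTR of the HMGA2 transcript ENST00000403681 in GENCODE 29, each as 22 bases of transcript with the seed match in capitals.
let-7a-5p: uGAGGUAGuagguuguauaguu
HMGA2 site 1: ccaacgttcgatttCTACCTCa
HMGA2 site 2: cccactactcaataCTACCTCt
HMGA2 site 3: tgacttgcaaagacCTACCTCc
HMGA2 site 4: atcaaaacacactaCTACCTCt
Of 19659 protein-coding genes, 10.2% have at least 1 such match in a 3′ UTR and 0.0661% have as many as HMGA2. HMGA1 has 1, and the HMGB and HMGN members have none. Of the 7 protein-coding HMGA2 transcripts in the annotation, 1 holds these sites, and counts per gene do not tell the transcripts apart. Of 13 listed genes of the let-7 axis, 9 were tested and none passed in edgeR, with 3 at an unadjusted p under 0.05, 2 called by DESeq2 and 0 by limma in either form, and a median log2 fold change of -0.00093. For all tested genes, 17.2% had an unadjusted p under 0.05, and DESeq2 called 1125 of 14763 in either direction. LIN28B, which blocks let-7 maturation, and TRIM71 had no count in any library. IGF2BP2 was at 168 ± 5.34 against 209 ± 6.15 CPM (edgeR adjusted p = 0.125) and IGF2BP3 at 150.4 ± 14.4 against 197 ± 11.8 CPM (adjusted p = 0.126; SD, n = 3 each), both mRNA-binding proteins and known let-7 targets.

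HMGB1, HMGB3 and HMGN2, the members with the largest differences, have CCAAT boxes, the letters bound by the factor NF-Y, just upstream of a start site. The stretches below are from RefSeq (GRCh38.p14), 5′ to 3′ on the gene's strand, ending 1 base before the start site for HMGB1 and HMGN2 and 30 bases before it for HMGB3, with CCAAT in capitals.
HMGB1, chr13:30465937-30466056, minus strand: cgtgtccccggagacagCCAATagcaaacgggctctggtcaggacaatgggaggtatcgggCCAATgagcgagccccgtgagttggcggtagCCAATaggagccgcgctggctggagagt
HMGB3, chrX:150983175-150983305, plus strand: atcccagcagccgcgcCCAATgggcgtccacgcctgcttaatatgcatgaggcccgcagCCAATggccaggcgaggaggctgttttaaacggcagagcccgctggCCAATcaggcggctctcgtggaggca
HMGN2, chr1:26472360-26472439, plus strand: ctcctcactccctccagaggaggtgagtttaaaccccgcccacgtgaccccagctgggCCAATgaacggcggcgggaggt
In windows of 300 bases, from 250 before to 50 after the start, searched on both strands, the HMGB1 and HMGB3 windows these come from each held 3 CCAAT matches and that of HMGN2 held 1. The other windows listed for HMGB1 held 1 and 0, and the other for HMGB3 held 0. Of 35116 such windows 34.6% hold at least 1 match and 3.26% at least 3. HMGN1, whose groups overlapped, held 2, and each of the 2 HMGA1 windows held 1. Whether the number of matches goes with the size of the difference was not tested. Of the other letters searched, TTTGAA was the only form tried for the cell cycle element CHR. It was in the printed HMGB3 window, outside the stretch shown, and in another HMGB1 window (15.2% of all windows). TTTCCCGC or TTTGGCGC, forms of the E2F site, were in none of the 9 windows of these 5 genes (2.27% of all). Letters that match are a description and show no binding, and no window was found under HMGA2 or HMGB2.

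Members of the same family were also set against each other within each library. The ratio of HMGN1 to HMGN2 was lower in all 3 CNTNAP2-203 OE libraries (log2 -0.70, -0.65 and -0.83) than in the 3 controls (-0.53, -0.18 and -0.47), a difference of -0.33. The ratio of HMGB2 to HMGB3 was also lower in CNTNAP2-203 OE without overlap, at 0.45 ± 0.0665 against 0.72 ± 0.155 on the log2 scale (SD, n = 3 each), a difference of -0.27. For both, the two-sided exact permutation p was 0.1, the smallest that 3 against 3 libraries can give, and 0.25 after adjustment over the 5 pairs compared. The ratios of HMGB1 to HMGB2 (difference 0.23, exact p = 0.3), HMGB1 to HMGB3 (-0.05, exact p = 1) and HMGA1 to HMGA2 (-0.16, exact p = 0.5) overlapped between the groups. The difference for HMGB1 to HMGB2 was 0.14 without CNTNAP2-203 OE replicate 1, 0.15 without control replicate 2 and 0.35 without CNTNAP2-203 OE replicate 3, and that for HMGB1 to HMGB3 was 0.10 without CNTNAP2-203 OE replicate 3. No pair is thus shown to have responded differently, nor alike.

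HMGB1, HMGN2, HMGN1 and HMGB3 have many processed pseudogenes, copies that share stretches of their mRNA, with 48, 35, 30 and 27 rows. The sources used here do not say how reads that match several genes were counted. The table lists 148 pseudogene rows of the 7 members, 12 of which were tested and none called by edgeR, with 4 at an unadjusted p under 0.05. DESeq2 called 3 of them, limma-voom 0 and limma-trend 1. Across all tested genes, 17.2% had an unadjusted p under 0.05. DESeq2 called 1125 of 14763 genes and limma-trend 186 of 18786, in either direction. For HMGB1 the pseudogene rows together held 33.0% to 40.5% as many counts as HMGB1 itself, for HMGN2 6.55% to 8.73%, and for the others at most 3.09%. Nearly all of the HMGB1 share came from HMGB1P5 (chr3:22381819-22382929) and HMGB1P6 (chr15:71164770-71165415), of whose 50-base windows 60.1% and 52.9% occur letter for letter in HMGB1 transcripts. HMGB1P5 was at 39.6, 35.4 and 34.8 CPM in the controls and 50.5, 48.8 and 54.3 CPM in CNTNAP2-203 OE (log2 fold change 0.48, edgeR adjusted p = 0.0692), and HMGB1P6 differed by 0.42 (adjusted p = 0.113). HMGN2P5, which shares 79.9% of its windows with HMGN2, differed by 0.44 (adjusted p = 0.334). The leading pseudogene rows of the others were HMGB2P1 (0.17), HMGA1P4 (0.88), HMGN1P36 (-0.0068) and HMGB3P24 (-1.13), with edgeR adjusted p of 0.223 or more. With all pseudogene counts added to their parent genes, HMGB1 had a log2 fold change of 0.52 (adjusted p = 0.0421) and HMGN2 of 0.54 (0.0551), close to the values without them.

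Of 7 tested relatives in the HMGB, HMGN, HMG20 and HMGXB families none passed in edgeR, 1 had an unadjusted p under 0.05, and the median log2 fold change was -0.0068. That 1 was HMGN3, a further nucleosome-binding member, at 53.2, 54.0 and 48.7 CPM in the controls and 70.9, 68.0 and 102 CPM in CNTNAP2-203 OE (log2 fold change 0.63, edgeR adjusted p = 0.113). DESeq2 called 1 gene of this list and limma 0. HMG20B, next by p, had a log2 fold change of 0.17 (adjusted p = 0.737), and HMGB4 had no count. Of 24 tested proteins with an HMG box outside these families none passed in edgeR, and 8 had an unadjusted p under 0.05, against 17.2% of all tested genes. DESeq2 called 2, against 1125 of all 14763 genes in either direction, and limma none. When CNTNAP2-203 OE replicate 3 was left out edgeR called 1, against 545 of all 19470 genes. The smallest p were those of HBP1, a repressor of cell cycle genes, at 36.8 ± 2.30 against 50.5 ± 1.77 CPM (adjusted p = 0.0726), and of TOX2 at 15.0 ± 1.84 against 22.2 ± 2.87 CPM (edgeR adjusted p = 0.121; SD, n = 3 each).

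Linker histones, the proteins HMGN and HMGA compete with on nucleosomes, had 5 tested genes and no edgeR call, with 1 at an unadjusted p under 0.05, and 1 call each by DESeq2 and limma-trend, 0 by limma-voom, and 1 by edgeR when CNTNAP2-203 OE replicate 3 was left out. In either direction, 17.2% of all tested genes had an unadjusted p under 0.05. DESeq2 called 1125 of 14763 genes, limma-trend 186 of 18786, and edgeR without that replicate 545 of 19470. The linker histone with the smallest p was H1F0, which encodes histone H1.0, at 384, 382 and 380.0 CPM in the controls and 256, 199 and 272 CPM in CNTNAP2-203 OE. All 3 overexpressing libraries lay far below the closely grouped controls (log2 fold change -0.66, SE 0.127), yet the edgeR adjusted p was 0.0549. HIST1H1C had a log2 fold change of 0.16 (adjusted p = 0.736).

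Of 16 histone chaperones, which load and remove histones, edgeR called 3 higher and none lower. It called 4 when CNTNAP2-203 OE replicate 3 was left out, and DESeq2 called 6 and limma-voom 2. Of all genes in each fit, edgeR called 0.798% higher, or 1.59% without that replicate, DESeq2 4.4% and limma-voom 0.516%. In this list 15 log2 fold changes were positive and the median was 0.30, close to that of the 7 HMG genes. CHAF1A, of the assembly factor that works behind the replication fork, was at 95.8 ± 3.75 against 60.4 ± 1.06 CPM (edgeR adjusted p = 0.0211), ASF1B at 63.6 ± 10.8 against 31.7 ± 1.85 CPM (0.0225), and ANP32E, which removes the histone variant H2A.Z, at 101 ± 10.6 against 56.7 ± 9.95 CPM (0.0451; SD, n = 3 each). Among 5 tested partners of HMGB2 in the SET complex none passed in edgeR, and 1 had an unadjusted p under 0.05, against 17.2% of all tested genes. DESeq2 called 1, against 1125 of all 14763 genes in either direction, and limma 0. When CNTNAP2-203 OE replicate 3 was left out edgeR called 1, against 545 of all 19470 genes. NME1 had a log2 fold change of 0.63 (adjusted p = 0.109) and SET itself of 0.18 (adjusted p = 0.398).

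In a list of S-phase and mitosis genes, 8 of 15 tested genes were called higher by edgeR and none lower. Such genes often vary together with HMGB2 and HMGN2 in dividing cells. With CNTNAP2-203 OE replicate 3 left out edgeR called 10, and DESeq2 called 13 and limma-voom 6. Of all genes in each fit, these called 1.59%, 4.4% and 0.516% higher, and edgeR on all 6 libraries 0.798%. All 15 log2 fold changes were positive and the median was 0.68, larger than for any of the 7 HMG genes. PCNA was at 264 ± 41.0 against 130 ± 4.15 CPM, RRM2 at 113 ± 4.71 against 62.1 ± 2.47 CPM, TUBA1B at 1267 ± 265 against 626 ± 47.1 CPM and TYMS at 114 ± 5.46 against 47.7 ± 2.63 CPM (SD, n = 3 each, edgeR adjusted p of 0.0314 or less). The list was not uniform within CNTNAP2-203 OE: MKI67, a marker of cycling cells, was at 341 and 368 CPM in replicates 1 and 2 but at 61.9 CPM in replicate 3, against 225, 261 and 199 CPM in the controls (edgeR adjusted p = 0.918), and TOP2A also overlapped between the groups. Replicate 3, lowest for MKI67, was the highest library for HMGB2, HMGB3 and HMGN2. In a bulk sample, more dividing cells and more RNA per cell cannot be told apart, and the part of that in the HMG values was not tested. Receptors and partners of secreted HMGB1 showed no common direction: of 8 tested, 4 had a positive log2 fold change and none passed in edgeR. An unadjusted p under 0.05 was seen for 3 of them, against 17.2% of all tested genes. DESeq2 called 1, against 1125 of all 14763 genes in either direction, and limma none. THBD, thrombomodulin, was at 95.4 ± 7.93 against 125 ± 6.32 CPM (adjusted p = 0.112), TLR4 was under 1.1 CPM in every library (log2 fold change 1.31, edgeR adjusted p = 0.126), and HAVCR2 and CXCL12 had no count.

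By the same measure of likeness, the nearest genes to HMGB1 were BRCA1 (root mean square difference 0.045 in centred log2 CPM; log2 fold change 0.49) and TCP1 (0.0452; 0.53). Those nearest to HMGB3 were OIP5 (0.0338) and SIVA1 (0.0348), to HMGN2 EME1 (0.0264) and PRPS1 (0.0274), and to HMGB2 PAGR1 (0.0354) and MBOAT1 (0.0374). HMGN1 was nearest to ZNF675 and PGBD1, and HMGA1 to PKN3. Among the 7 themselves, HMGB3 and HMGN2 were the most alike, with a difference of 0.0627, followed by HMGB2 and HMGN1 at 0.110, while HMGA2 differed from each other member by 0.654 to 0.797.

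Which of the 3 genes near the threshold passed depended on the setting. DESeq2 called HMGB1, HMGB3 and HMGN2 (4.4% of its genes were called higher), and so did edgeR without a filter on low counts (0.603%) and edgeR without CNTNAP2-203 OE replicate 3 (1.59%). HMGB1 alone was called by limma-voom (0.516%) and by edgeR with the size factors of DESeq2 (0.735%), and limma-trend on the deposited log2 FPKM values called HMGN2 alone (0.527%). No member was called with control replicate 1, 2 or 3 left out (0.0617%, 0.0411% and 0.0621% of genes called higher), with CNTNAP2-203 OE replicate 1 or 2 left out (0.0828% and 0.222%), or with the replicate block (0.0586%). HMGB2, HMGN1, HMGA1 and HMGA2 were called under none of these settings.

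**Figure D5:**
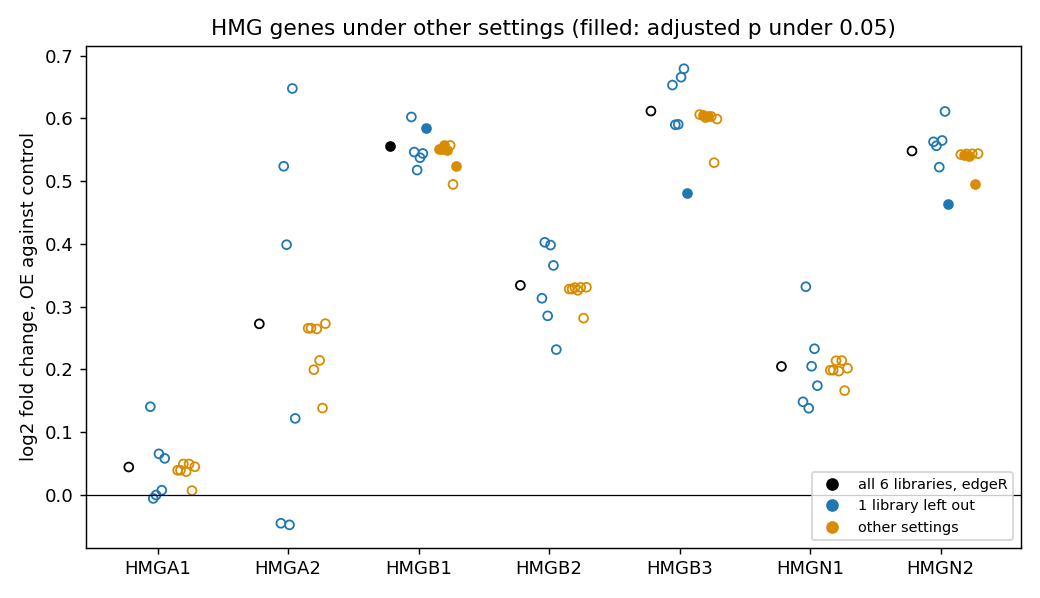
Log2 fold change of each HMG gene with all 6 libraries in edgeR (black), with 1 library left out (blue) and under 7 other settings (orange), filled where the adjusted p is under 0.05. HMGB1, HMGB3 and HMGN2 stay between 0.46 and 0.68 throughout, while HMGA2 runs from -0.048 to 0.65.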

How the data were processed

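CAL27 total RNA went through ribosomal RNA depletion and a TruSeq v2 library kit, per the labels' protocols. That kit does not mark strand. Trim Galore 0.4.4 and hg38 are named in the submitters' processing notes. The sources used here do not give the aligner, counter or annotation. The authors deposited raw counts per gene, and in a second deposited table log2 values, read here as log2(FPKM + 1): the implied gene length varied between libraries by a median of 0.228% with an offset of 1 and 2.48% with none. FPKM was taken as 2 to that value, minus 1. Counts were filtered with filterByExpr (minimum count 10), scaled by TMM and tested with edgeR 4.0.16 in R 4.3.3 (robust quasi-likelihood, group as the only term, Benjamini-Hochberg over 18786 genes, threshold 0.05). The SE is the log2 fold change over the root of F, and 95% intervals use the test's degrees of freedom. CPM is TMM-scaled. Alternatives used DESeq2 1.42.0 and limma 3.58.1. Coordinates and transcripts are from GENCODE 29 (GRCh38), promoters and miRNAs from RefSeq (GRCh38.p14), where 5 of the 7 members had a promoter.

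The members, lists and rules were chosen with earlier results of these data known, so no list is independent support. Named genes were the 7 members, CNTNAP2, from each list the called genes (up to 4, by p) or else the 2 with the smallest p, each member's leading pseudogene and its 2 nearest genes among those whose average log2 CPM reached 1, and most markers of cell types are given as summed levels only. One gene named by this rule is not reported here. Others, among them LIN28B, TRIM71, HMGB4, HAVCR2, CXCL12, COL3A1, PTPRC, PECAM1, COL1A1, LUM, CD14, CDH5, KDR, MKI67, TOP2A, PBRM1, ATRX, ANP32A, HMGB1P6, ZNF678 and AC025165.3, were named after their values were seen.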

Additional observations from a re-analysis of the deposited data

How the results depend on the processing

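The log2 fold changes of HMGB1, HMGB2, HMGB3, HMGN1 and HMGN2 kept their direction under every alternative run. The HMGB1 call was lost with limma-trend on log2 FPKM (0.49, adjusted p = 0.0546) and with the replicate block (0.56, adjusted p = 0.130). Calls were gained for HMGB3 and HMGN2 with DESeq2 (0.61 and 0.54) and without a filter (0.60 and 0.54), and for HMGN2 with limma-trend on log2 FPKM (0.50). Leaving out 1 library, log2 fold changes ran from 0.52 to 0.60 for HMGB1, 0.48 to 0.68 for HMGB3, 0.46 to 0.61 for HMGN2, -0.0060 to 0.14 for HMGA1 and -0.048 to 0.65 for HMGA2, and log2 ratio differences from -0.75 to 0.37 for HMGA1 to HMGA2 -0.13 to 0.10 for HMGB1 to HMGB3 and 0.14 to 0.35 for HMGB1 to HMGB2. Each of these fits had fewer libraries, and the cause of the ranges was not tested. Over all genes, 262 were called, 150 higher and 112 lower. This was 1125 (650 and 475) with DESeq2, 166 (97 and 69) with limma-voom, and 99 higher with limma-trend on log2 FPKM. With 1 library left out, 14 to 545 were called (8 to 310 and 6 to 235). The 545 came without CNTNAP2-203 OE replicate 3, and leaving out any other library gave 73 or fewer. With the replicate block 17 were called (11 and 6). Same-numbered libraries deviated from their group means with correlations of -0.08, 0.07 and -0.01, and in no case was the same number the best match. With 3 libraries per group this cannot exclude pairing. The block was kept as an alternative because no label says that the numbers pair the libraries. HMGA2 had 1318 or more raw counts in every library, whereas TLR4 and HMGA1P4, at about 1 CPM or less, are limited by counting.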
